A study of Mus musculus with 6 samples.

Results

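The 10 genes described here mark macrophages, and they were read from bulk RNA-seq of sorted mouse leukemia cells. They are Adgre1, Csf1r and Mrc1, which encode surface receptors, the complement genes C1qa, C1qb and C1qc, the endosomal glycoprotein gene Cd68, the adhesion gene Vcam1, the heme-degrading enzyme gene Hmox1 and the secreted scavenger protein gene Cd5l. All 10 were found among the 53618 named rows of the gene table, and 9 of them were among the 12298 genes with a normalized count of 10 or more in at least 3 libraries, which were the genes tested. Adgre1 was below this limit. The genes were chosen by name, as markers of the cell type, with earlier results of these data known, so the shares of all genes set beside their counts are a background and not a test.

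The leukemia was driven by AE9a, a truncated form of the AML1-ETO fusion protein, in Usp18+/f UBCER-Cre fetal liver cells that also carried GFP from the same retrovirus. Both groups therefore shared the floxed Usp18 allele, the Cre and the fusion gene. Cre fused to an estrogen receptor domain was expressed here from the ubiquitin C promoter, which is active in most cell types, and tamoxifen switches it on. After the recipients, C57BL/6 mice of 8 to 12 weeks that had been irradiated at a sublethal dose and transplanted with these cells, had become sick, they were injected with oil (Usp18+/f, n = 3 mice) or tamoxifen (Usp18+/Δ, n = 3 mice). GFP+Lin-c-Kit+ cells were sorted from the spleen 3 days after the first injection, with 1 library per mouse. Cells of the host, its own macrophages included, carry neither GFP nor the fusion gene, and both groups were sorted in the same way.

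Macrophages of the spleen take up aged red cells and apoptotic cells. In the red pulp they degrade heme with the enzyme encoded by Hmox1, recycle its iron, and express VCAM-1, F4/80 (encoded by Adgre1) and CD5L. They depend on the cytokine CSF1, whose receptor is the product of Csf1r, and they are a main source of the 3 chains of C1q, the first component of the classical complement pathway. Leukemia cells of the myeloid lineage can also transcribe some of these genes, and VCAM-1 is known from endothelium and stroma as well.

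The targeted gene, Usp18, was higher under the tamoxifen label, opposite to the direction of a deletion. The count covers the whole gene, in cells in which 1 allele was to be deleted, and does not read the deleted part by itself. Its normalized counts were 217, 214 and 176 under the oil label and 477, 329 and 284 under the tamoxifen label, so each of the 3 libraries labelled tamoxifen was above each of the 3 labelled oil. Groups are therefore named below by their labels. Values are listed in the order of replicates 1, 2 and 3 of each label, and a normalized count is a read count divided by the size factor of its library, so that 1 read was worth between 0.898 and 1.28. The libraries held 19172471 to 23785143 reads. The library labelled tamoxifen 1 stood apart from the rest, with a median correlation of 0.913 with the other libraries, against 0.981 to 0.990, and with 0.00923% of its reads from mitochondrial genes, against 1.01% to 1.56%.

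The sorted cells were checked against the markers of their gate. Kit, which encodes c-Kit, was high in all libraries, with normalized counts of 8182 ± 749 (SD, n = 3) under the oil label and 7804 ± 3145 (SD, n = 3) under the tamoxifen label. Ptprc, which encodes the leukocyte antigen CD45, had 1 to 8 reads per library, a low count for sorted blood cells, and since the annotation and counting tool are not given in the sources used here, no presence or absence of the antigen was read from it. Itgam, which encodes the lineage antigen CD11b, had 0 reads in 5 libraries and 1 read in the sixth, the library labelled tamoxifen 2; another gene model of the annotation used here shares 3450 of its exon bases on the same strand, and how such reads were counted is not given in the sources used here. Klf1, an erythroid transcription factor, had mean normalized counts of 5597 and 7397 under the oil and tamoxifen labels. The tamoxifen mean without the library labelled tamoxifen 1 was 5177 for Klf1 and 9363 for Kit, so that for both genes the order of the group means turned.

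All 10 macrophage genes were measured at low levels. Together they took 363, 148 and 166 reads under the oil label and 354, 497 and 478 under the tamoxifen label, or 15.3, 6.62 and 7.04 CPM against 18.5, 23.1 and 20.7. Per kilobase of exon, the highest mean was that of Hmox1, at 25.1 normalized counts under the oil label and 71.3 under the tamoxifen label, against 918 and 876 for Kit on the same scale. In bulk samples such as these, fewer cells of a type and less RNA per cell cannot be told apart.

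**Figure D1:**
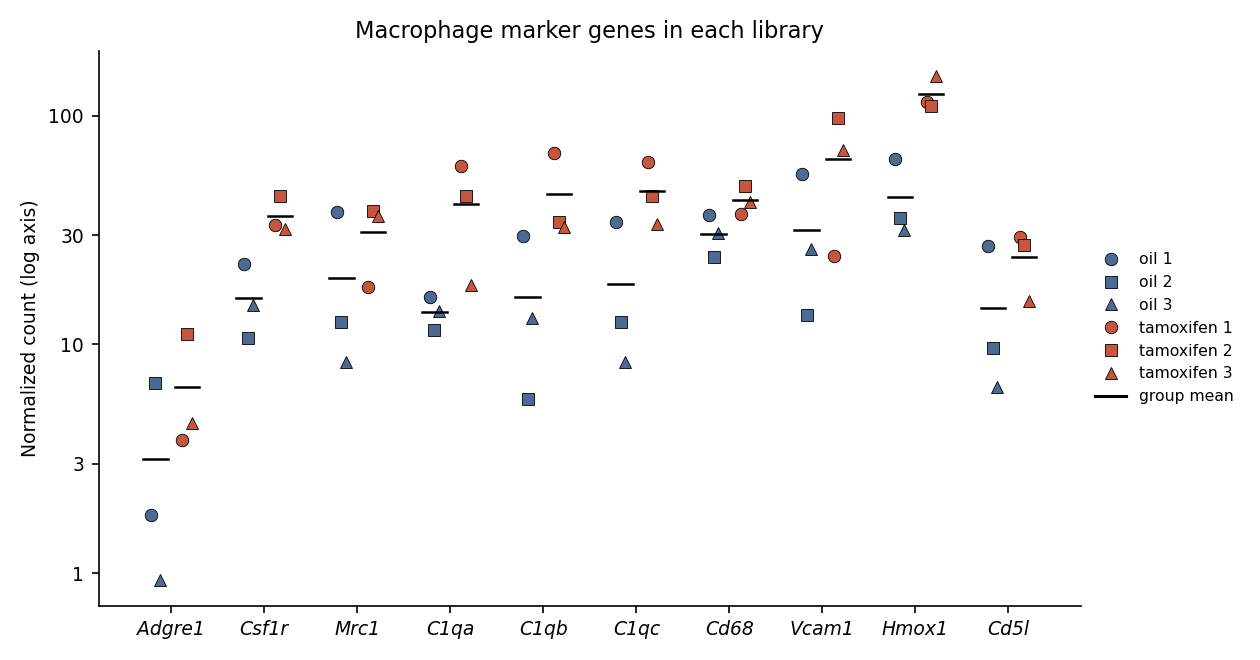
Normalized count of each macrophage marker gene (log axis) in the 3 libraries labelled oil and the 3 labelled tamoxifen; symbols mark the replicate and black lines the group means. Hmox1 and Csf1r lie higher in each library labelled tamoxifen than in each labelled oil, whereas for Mrc1 and Vcam1 the groups overlap.

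On the scale of normalized counts per kilobase of exon, the order under the oil label was Hmox1 (25.1 ± 10.3, SD, n = 3), Cd68 (24.3 ± 5.06), C1qb (14.8 ± 11.2), C1qa (13.4 ± 2.21), C1qc (9.50 ± 7.16), Cd5l (7.06 ± 5.41), Vcam1 (3.58 ± 2.44), Mrc1 (3.07 ± 2.49), Csf1r (2.77 ± 1.04) and Adgre1 (0.976 ± 0.971). Neighbours in this order differed by less than the larger of their SDs, except Csf1r and Adgre1. Under the tamoxifen label the order was Hmox1 (71.3 ± 12.1), C1qb (41.7 ± 18.8), C1qa (39.3 ± 20.4), Cd68 (34.0 ± 4.99), C1qc (24.3 ± 7.58), Cd5l (11.8 ± 3.69), Vcam1 (7.26 ± 4.2), Csf1r (6.32 ± 1.2), Mrc1 (4.85 ± 1.77) and Adgre1 (2.01 ± 1.24). Here the neighbours that did not differ beyond the larger SD were C1qb and C1qa, C1qa and Cd68, Vcam1 and Csf1r, and Csf1r and Mrc1. Hmox1 was thus the highest of the 10 on this scale in both groups, and Adgre1 the lowest in both. Under the oil label Hmox1 was beside Cd68, and without the library labelled oil 1 it was below Cd68.

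The comparison asked whether these genes differed after tamoxifen. None of the 9 tested genes passed limma's adjusted p threshold of 0.05, and all 9 had the same adjusted p of 0.666. The background was the same, since 0% of the 12298 genes passed in this fit, while an unadjusted p under 0.05 was found for 397 genes with tamoxifen higher and 153 with tamoxifen lower. edgeR on recovered reads also called 0 genes, with 596 at an unadjusted p under 0.05, and DESeq2 called 71. Each of the 9 reached a value of 10 in at least 1 library labelled oil. All 9 log2 differences were above 0, with a median of 1.19, against a median of -0.017 over all genes tested. In a fit with no limit on low values, which adds Adgre1, all 10 were above 0 with a median of 1.10. At an unadjusted p under 0.05, 5 of the 9 were higher under the tamoxifen label, against 3.23% of all genes tested; these were Csf1r, the 3 C1q genes and Hmox1. For 5 of the 9, Csf1r, C1qa, C1qb, Cd68 and Hmox1, the groups did not overlap, with tamoxifen higher, which was seen in 7.86% of all genes tested. For a single gene with 3 libraries against 3, the smallest two-sided p of an exact permutation test is 0.1.

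Leaving out 1 library moved these counts. Without the library labelled tamoxifen 1 the median log2 difference was 1.25, 6 of the 9 were higher at an unadjusted p under 0.05 in limma, against 6.04% of all genes tested, and the groups did not overlap for 6, against 12.6%; these were the 5 above and Vcam1. Without the library labelled oil 1 the median was 1.46 and the groups did not overlap for 8 of the 9, all but Vcam1, against 11.5% of all genes tested; 6 of the 9 were higher at an unadjusted p under 0.05, against 2.32%. This count fell to 1, Hmox1, without the library labelled oil 2 (1.6% of all genes tested) and without the one labelled tamoxifen 2 (5.01%). It was 2, Csf1r and Hmox1, without the library labelled oil 3 (1.72%) and 4 without the one labelled tamoxifen 3 (2.2%).

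**Figure D2:**
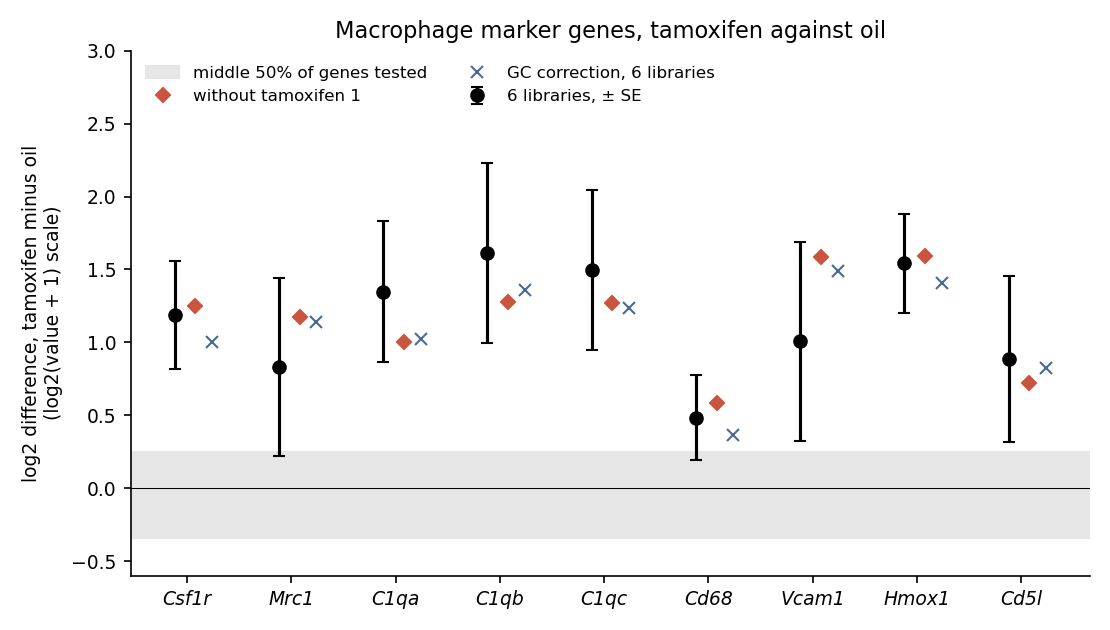
log2 difference (tamoxifen minus oil, log2(value + 1) scale) of the 9 tested macrophage marker genes; black points are the limma estimates over 6 libraries with their SE, red diamonds leave out the library labelled tamoxifen 1, blue crosses use a correction for GC content, and the grey band is the middle 50% of all genes tested. All 9 black points lie above the band, from 0.48 for Cd68 to 1.61 for C1qb.

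Among the receptors, Csf1r differed most in relation to its spread. Csf1r (ENSMUSG00000024621.16, chr18:61100598-61132149, + strand, GRCm38) encodes the receptor tyrosine kinase for CSF1 and IL-34. It was measured at normalized counts of 22.5, 10.6 and 14.9 under the oil label and 33.2, 44.5 and 31.8 under the tamoxifen label. Each library labelled tamoxifen was above each labelled oil, and the ratio of the means, 36.5 ± 6.92 against 16.0 ± 6.0 (SD, n = 3 each), was 2.29. In limma the log2 difference was 1.19 ± 0.37 (SE). The gene Hmgxb3, which had 952 to 1279 reads per library, lies on the other strand and shares 873 exon bases with Csf1r, and since the strand setting of the counting is not given in the sources used here, reads of the 2 genes there cannot be told apart.

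Mrc1 (ENSMUSG00000026712.3, chr2:14229392-14332057, + strand) encodes the mannose receptor CD206, which takes up glycoproteins. Normalized counts of Mrc1 were 37.7, 12.5 and 8.36 under the oil label and 17.9, 38.4 and 36.4 under the tamoxifen label. The groups overlapped, because the library labelled oil 1 was as high as those labelled tamoxifen 2 and 3, and the library labelled tamoxifen 1 was below it and below either of those. The limma log2 difference was 0.83 ± 0.61 (SE), and it was 1.43 without the library labelled oil 1 and 0.40 without the one labelled oil 3.

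Adgre1 (ENSMUSG00000004730.15, chr17:57358691-57483527, + strand) encodes F4/80, the antigen by which mouse macrophages are usually recognised. It had 2, 7 and 1 reads under the oil label and 3, 11 and 5 reads under the tamoxifen label. In 3 libraries it was thus at 3 reads or fewer, and no order was read among these. The exact Poisson intervals of the highest and the lowest library, 11 reads (5.49 to 19.7) and 1 read (0.0253 to 5.57), overlapped slightly. Without the limit on low values the limma log2 difference was 0.99 ± 0.69 (SE), with an adjusted p of 0.713.

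The 3 C1q genes gave some of the widest differences. They encode the A, B and C chains, which assemble into 1 protein, and they lie side by side on chromosome 4 on the - strand, C1qb (ENSMUSG00000036905.8) at chr4:136880129-136886187, C1qc (ENSMUSG00000036896.5) at chr4:136889804-136893065 and C1qa (ENSMUSG00000036887.5) at chr4:136895917-136898803. C1qa was 16.2, 11.6 and 13.9 normalized counts under the oil label and 60.1, 44.5 and 18.2 under the tamoxifen label. The groups did not overlap, but the library labelled tamoxifen 3 was close to the one labelled oil 1. The ratio of the means was 2.94, and the limma log2 difference was 1.35 ± 0.48 (SE), or 0.999 without the library labelled tamoxifen 1.

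C1qb was 29.6, 5.79 and 13 normalized counts under the oil label and 69.0, 34.4 and 32.7 under the tamoxifen label. Again the groups did not overlap, and the range was the widest of the 9 tested genes, 11.9 between the highest and the lowest library. The lowest value came from 6 reads, with an exact Poisson interval of 2.20 to 13.1 reads. The limma log2 difference was 1.61 ± 0.62 (SE), or 1.27 without the library labelled tamoxifen 1. C1qc was 34.1, 12.5 and 8.36 against 62.6, 44.5 and 33.6. Here the library labelled oil 1 was just above the one labelled tamoxifen 3, so that the groups overlapped, and the limma log2 difference was 1.5 ± 0.55 (SE), or 1.27 without the library labelled tamoxifen 1.

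The log2 ratio of the neighbours C1qb and C1qc had an SD of 0.53 over the 6 libraries. Without the library labelled tamoxifen 1 it was 0.57, the same as the median of the 36 pairs without Adgre1. The ratio of Cd5l to C1qc varied least of all pairs over the 6 libraries, and Cd68 had the narrowest range of the 10. The promoters of C1qb, C1qc, Cd5l and Cd68 are shown. Each runs from 250 bases before to 50 bases after the RefSeq gene start (GRCm38.p6), 5′ to 3′ on the strand of the gene, and the tables used here held 5 of the 10 genes. Capitals mark matches on either strand to GAGGAA, the core letters bound by the myeloid factor PU.1, and to TGCTGA, a short element bound by MAF factors; both were searched in all 32851 promoters of the same length. The windows are chr4:136886151-136886450 for C1qb, chr4:136892865-136893164 for C1qc, chr3:87357631-87357930 for Cd5l and chr11:69666121-69666420 for Cd68.
C1qb: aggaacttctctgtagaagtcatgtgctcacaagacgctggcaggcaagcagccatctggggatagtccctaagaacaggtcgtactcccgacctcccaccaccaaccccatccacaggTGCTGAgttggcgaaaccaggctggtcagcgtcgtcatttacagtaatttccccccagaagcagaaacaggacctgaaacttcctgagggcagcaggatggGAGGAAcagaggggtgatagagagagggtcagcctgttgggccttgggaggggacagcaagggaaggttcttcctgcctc
C1qc: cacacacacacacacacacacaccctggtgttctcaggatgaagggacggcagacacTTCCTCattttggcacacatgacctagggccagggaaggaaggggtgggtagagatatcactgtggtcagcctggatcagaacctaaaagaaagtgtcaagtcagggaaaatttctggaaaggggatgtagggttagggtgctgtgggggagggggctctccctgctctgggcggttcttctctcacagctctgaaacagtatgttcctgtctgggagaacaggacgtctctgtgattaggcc
Cd5l: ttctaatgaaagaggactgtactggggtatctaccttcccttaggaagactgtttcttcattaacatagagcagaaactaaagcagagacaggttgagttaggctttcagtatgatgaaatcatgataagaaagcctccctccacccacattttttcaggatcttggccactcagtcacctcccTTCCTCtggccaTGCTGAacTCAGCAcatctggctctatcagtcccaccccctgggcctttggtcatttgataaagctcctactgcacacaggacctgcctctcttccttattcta
Cd68: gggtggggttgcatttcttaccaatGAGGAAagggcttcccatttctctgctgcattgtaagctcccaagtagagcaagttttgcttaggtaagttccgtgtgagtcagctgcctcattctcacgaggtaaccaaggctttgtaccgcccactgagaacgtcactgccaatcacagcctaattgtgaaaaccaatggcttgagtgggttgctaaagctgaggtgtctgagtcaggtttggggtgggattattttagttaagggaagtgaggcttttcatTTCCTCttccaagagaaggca

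All 4 held GAGGAA, as did the promoter of Mrc1, the fifth gene with a window kept here. For Csf1r, whose chromosome was left out, no match was recorded, so these genes are not a full count of the members. GAGGAA is common, since 28.3% of all promoters held it. Positions give the leftmost base of a match, with the start counted as 1 and the base before it as -1. In C1qb the match was at -30 on the strand of the gene, and in C1qc at -193 on the other strand, so the 2 genes shared neither its place nor its strand. In Cd68 it was found at -225 and, on the other strand, at 30, and in Cd5l at -66 on the other strand. TGCTGA was found in C1qb at -131 and in Cd5l at -54 and, on the other strand, at -46, and 19.5% of all promoters held it. The letters GAAANNGAA, a shortened form of the element bound by interferon-activated factors, which can overlap the former motif, were searched in the same way and were in 8.56% of all promoters but in none of these 5 windows. These matches are a description of the letters only.

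Cd68 (ENSMUSG00000018774.13, chr11:69664213-69666153, - strand) encodes a glycoprotein of endosomes and lysosomes that macrophages hold in large amounts and other myeloid cells in smaller ones. Cd68 was measured at normalized counts of 36.8, 24.1 and 30.6 under the oil label and 37.1, 49.5 and 41.8 under the tamoxifen label. It was the most even of the 10 genes, with 2.05 between the highest and the lowest library. The groups did not overlap, although the libraries labelled oil 1 and tamoxifen 1 were nearly equal, and the limma log2 difference was 0.48 ± 0.29 (SE), the smallest of the 9.

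Vcam1 (ENSMUSG00000027962.14, chr3:116109949-116129688, - strand) encodes an adhesion protein that binds the integrin VLA-4 on leukocytes. For Vcam1, normalized counts were 55.7, 13.5 and 26.0 under the oil label and 24.3, 98.0 and 70.9 under the tamoxifen label. The groups overlapped only through the library labelled tamoxifen 1, which lay below the libraries labelled oil 1 and 3. Over 6 libraries the limma log2 difference was 1.01 ± 0.68 (SE). Without the library labelled tamoxifen 1 it was 1.59, with an adjusted p of 0.245 in limma, and the groups did not overlap. It was 1.51 without the library labelled oil 1, but 0.53 without the one labelled oil 2 and 0.60 without the one labelled tamoxifen 2.

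Hmox1 (ENSMUSG00000005413.8, chr8:75093621-75100589, + strand) encodes heme oxygenase 1, which breaks down heme and is also induced by heme and oxidative stress in many cell types. It was the only one of the 10 that any of the 3 tools called. Hmox1 had normalized counts of 64.7, 35.7 and 31.6 under the oil label and 115, 110 and 149 under the tamoxifen label. The lowest library labelled tamoxifen was well above the highest labelled oil, and the ratio of the means, 125 ± 21.3 against 44.0 ± 18 (SD, n = 3 each), was 2.84. The limma log2 difference was 1.54 ± 0.34 (SE), with an adjusted p of 0.666. DESeq2 on recovered reads gave a log2 difference of 1.5 with an adjusted p of 0.0249, and it called 0.45% of the genes it gave an adjusted p; edgeR gave an adjusted p of 0.725. Without the library labelled tamoxifen 1 the limma log2 difference was 1.59 with an adjusted p of 0.0968.

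Cd5l (ENSMUSG00000015854.7, chr3:87357881-87371073, + strand) encodes a protein that macrophages secrete and that is known for inhibiting apoptosis. Cd5l was at normalized counts of 26.9, 9.65 and 6.50 under the oil label and 29.4, 27.3 and 15.5 under the tamoxifen label. The groups overlapped, since the library labelled oil 1 was above the one labelled tamoxifen 3. The limma log2 difference was 0.89 ± 0.57 (SE), and it was 1.44 without the library labelled oil 1 and 0.49 without the one labelled oil 3.

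Under the oil label most of the genes had their highest value in the same mouse, whereas under the tamoxifen label they were split. The library labelled oil 1 was the highest of its group for 9 of the 10 genes, all but Adgre1, whereas it was the highest for 33.1% of all genes tested. Of the 9 tested genes, Csf1r, C1qa, C1qb, Cd68 and Vcam1 were lowest in the library labelled oil 2, and Mrc1, C1qc, Hmox1 and Cd5l in the one labelled oil 3. Under the tamoxifen label, the library labelled tamoxifen 1 was the highest for 4 of the 10 genes, the 3 C1q genes and Cd5l, against 45.05% of all genes tested, and the lowest for 4, Adgre1, Mrc1, Cd68 and Vcam1, against 45.8%. The library labelled tamoxifen 2 was the highest for 5 genes, against 31.7% of all genes tested, and the one labelled tamoxifen 3 for 1, Hmox1, against 23.2%. The normalized counts of the 10 genes summed to 326, 143 and 154 under the oil label and 452, 502 and 435 under the tamoxifen label, so that the sums did not overlap. The ratio of the mean sums was 2.23. It was 3.12 without the library labelled oil 1 and 2.26 without the one labelled tamoxifen 1.

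The shares of the 3 chains among the C1q reads did not differ between libraries beyond wide counting intervals. C1qa took 20.2% to 39.5% of the reads of the 3 chains, C1qb 19.4% to 38.7% and C1qc 23.7% to 42.7%, out of 31 to 150 reads per library, and for each chain the exact 95% binomial intervals of all pairs of libraries overlapped. These intervals cover counting error only, since the reads carry no molecular identifiers. The log2 ratio of C1qa to C1qb had an SD of 0.68 over the 6 libraries, and that of C1qa to C1qc 0.62. The median over the 36 pairs without Adgre1 was 0.66. Without the library labelled tamoxifen 1 these values were 0.75, 0.69 and 0.57. Cd5l, set against the C1q chains, took 13.3% to 25.2% of the joint reads, with overlapping intervals. Vcam1 took 41.1%, 31.1% and 42.4% of its reads and those of C1q together under the oil label, and 44.3% and 45.6% in the libraries labelled tamoxifen 2 and 3, but 11.2% (6.91% to 17%) in the library labelled tamoxifen 1. The interval of this library lay below those of the other 5. Csf1r, Cd68, Hmox1 and Mrc1, set against C1q in the same way, also had their lowest share in it, as did Cd5l and Adgre1. All 7 of these shares count the C1q reads, and the 3 C1q genes were highest in this library. Csf1r took 14.8% (9.88% to 20.9%), which overlapped the intervals of the other 5 libraries. Cd68 took 16.2% (11.1% to 22.4%) in it, an interval below those of 4 of the other 5 libraries. Mrc1 took 8.54% (4.75% to 13.9%) against 19.1% to 32.1%, but this interval overlapped that of the library labelled oil 3 (9.15% to 33.3%). Hmox1 took a larger share in the library labelled tamoxifen 3, at 63.8% (57.6% to 69.7%), than in the one labelled tamoxifen 1, at 37.5% (31.4% to 44.0%). The interval of the library labelled tamoxifen 3 also lay above those of oil 1 (36.9% to 52.7%) and tamoxifen 2 (40.6% to 53.8%). It overlapped those of oil 2 (41.9% to 66.5%) and oil 3 (35.3% to 59.3%).

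**Figure D3:**
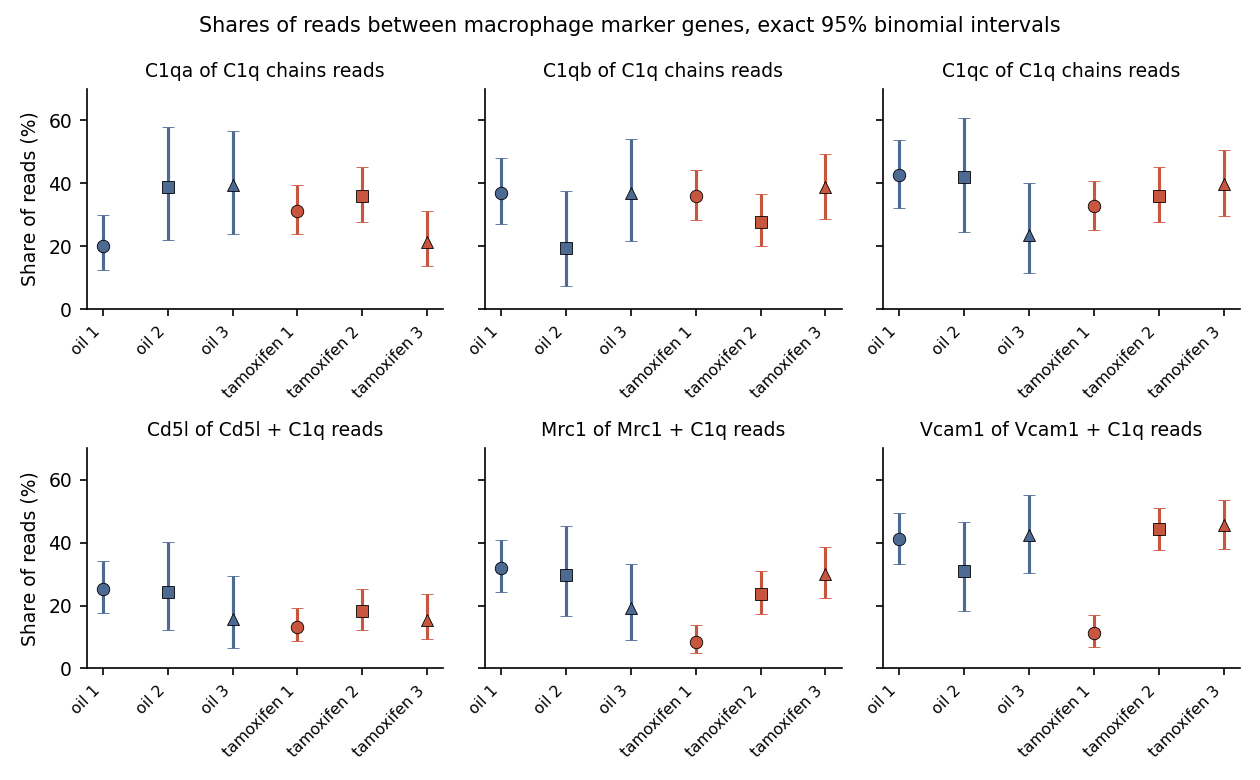
Share of reads (%) of each C1q gene among the 3 C1q genes (top) and of Cd5l, Mrc1 and Vcam1 among their own and the C1q reads (bottom) in each library, with exact 95% binomial intervals; blue points are libraries labelled oil and red ones those labelled tamoxifen. The shares of the chains overlap throughout, and Vcam1 is at 11.2% in the library labelled tamoxifen 1 against 31.1% to 45.6% in the other 5.

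The ratio of C1qc to Cd5l varied least of the 45 pairs over the 6 libraries, with an SD of 0.36 on the log2 scale. The next were Csf1r with Hmox1 (0.40) and Csf1r with Cd68 (0.42). Among the 36 pairs without Adgre1 the median SD was 0.66, and without the library labelled tamoxifen 1 it was 0.57. The change was large for C1qb with Vcam1, from 1.07 to 0.23, and for Mrc1 with C1qc, from 0.73 to 0.14, so that without this library both pairs varied less than C1qc with Cd5l, at 0.33.

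The departure of the library labelled tamoxifen 1 moved with GC content. On the log2(value + 1) scale its value minus the mean of the libraries labelled tamoxifen 2 and 3 had a median of -1.82 over genes whose longest transcript has under 40% GC, -0.97 from 40% to 45%, -0.21 from 45% to 50%, 0.34 from 50% to 55% and 0.83 above 55%. Vcam1, at 40.1% GC, had a value of -1.74, and Mrc1, at 43.4%, of -1.02. C1qa, C1qb and C1qc, at 59.5%, 57.4% and 57.5%, had values of 1.05, 1.02 and 0.68. Csf1r, Cd68 and Hmox1, with 52.9% to 54.5% GC, were at -0.17, -0.29 and -0.15, below the median of their class, and Cd5l was at 0.49. With a correction for GC content the log2 differences were 1.03 for C1qa, 1.36 for C1qb, 1.24 for C1qc and 1.49 for Vcam1, and all 9 stayed above 0.

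**Figure D4:**
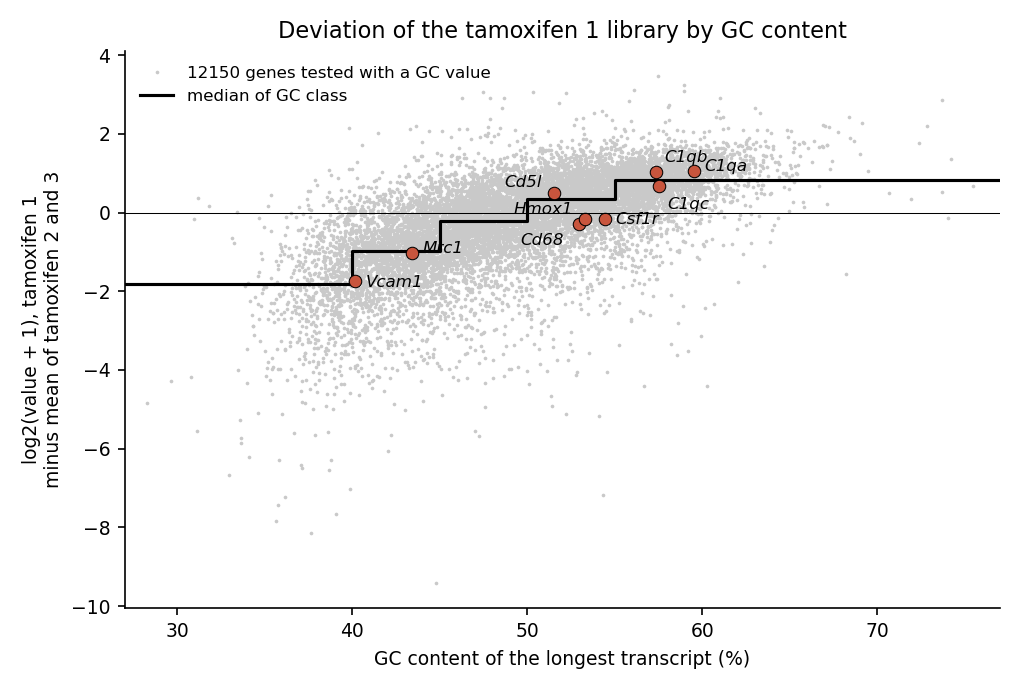
Value of the library labelled tamoxifen 1 minus the mean of those labelled tamoxifen 2 and 3 on the log2(value + 1) scale, against GC content of the longest transcript (%); grey points are the genes tested that have a GC value, the black line the median of each GC class, and red points the 9 macrophage marker genes. In the class with a median of -0.97, Mrc1 lies near this value and Vcam1 below it, and the 3 C1q genes lie around their class median of 0.83.

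The genes whose values over the 6 libraries were most like those of C1q were sought among 12295 tested genes, using Pearson's r with the mean of log2(value + 1) of the 3 chains. The 10 most alike were Dnajb5 (0.985), Gm13071 (0.982), Sirpa (0.975), Axl (0.970), Gbp5 (0.970), Gmds (0.969), Hr (0.965), Rarg (0.962), Sdc3 (0.961) and Clec10a (0.960). Of these, Gm13071 and Hr reached a value of 10 in no library labelled oil and entered the search only through their values under the tamoxifen label. The order rested in part on the library labelled tamoxifen 1. Without it, Dnajb5 was still the most alike and Sirpa and Gm13071 had ranks 5 and 10, while the other 7 had ranks of 11 to 92, among them Rarg (57, r = 0.951), Sdc3 (89, 0.931) and Clec10a (92, 0.929). Sirpa encodes the receptor for CD47, Axl a receptor for phosphatidylserine-bound GAS6, and Clec10a a lectin of macrophages and dendritic cells. In all, 16 genes were above 0.95, and all values share the same 6 libraries, with their size factors and their GC content. Of the macrophage genes, Csf1r was at 0.90, Cd5l at 0.89, Hmox1 at 0.85, Cd68 at 0.77, Mrc1 at 0.58 and Vcam1 at 0.50. Without the library labelled tamoxifen 1, Vcam1 was at 0.98, Csf1r and Cd68 at 0.97 and Mrc1 at 0.92. These values without that library still hold the difference between the groups. With the group means removed over the 6 libraries, Cd5l stayed at 0.88, while Csf1r was at 0.68 and Hmox1 at 0.46. Cd68 was at 0.41, Mrc1 at 0.34 and Vcam1 at 0.15.

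Other genes of resident macrophages were read from lists, in which the same fit and the same backgrounds apply. A gene that reached a value of 10 in no library labelled oil was tested only because it was high under the tamoxifen label, so its fitted difference is not given. Of 18 genes of red pulp and tissue-resident macrophages, 9 were tested, and 4 of these reached 10 in no library labelled oil. Among the other 5 the median log2 difference was 0.99, or 0.55 without the library labelled tamoxifen 1, and at an unadjusted p under 0.05 in limma 1 was higher and 0 lower. This was Axl, a receptor for apoptotic cells, at 60.2, 24.1 and 38.1 normalized counts under the oil label and 105, 86.9 and 72.8 under the tamoxifen label (log2 difference 1.17 ± 0.38, SE, and 1.04 without the library labelled tamoxifen 1). Of the 4 genes left aside, Maf, a transcription factor of macrophages, was 2.69, 3.86 and 1.86 against 14.1, 16.2 and 16.4, and the nuclear receptor gene Nr1h3 was 1.80, 2.89 and 6.50 against 20.4, 11.1 and 12.7. The iron exporter gene Slc40a1, which erythroid cells also express, differed by 0.06 ± 0.24 (SE), or by 0.24 without the library labelled tamoxifen 1. Spic, the transcription factor of red pulp macrophages, was below the limit for testing at 0.898, 1.93 and 3.71 against 2.56, 15.2 and 13.6, where the library labelled tamoxifen 1 lay below the highest one labelled oil.

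Of 12 genes of phagocytosis and scavenger receptors, 6 were tested, and 1 of these, Stab1 (4.49, 1.93 and 3.71 normalized counts under the oil label against 15.3, 10.1 and 11.8), reached 10 in no library labelled oil. Of the other 5, 2 were higher at an unadjusted p under 0.05 in limma, Sirpa (log2 difference 1.77) and Lrp1 (1.74), and the median was -0.23, or 0.14 without the library labelled tamoxifen 1. Msr1, a scavenger receptor gene, was -0.86 and Pros1, encoding protein S, -0.34, neither of which passed; without that library they were -0.47 and 0.14. Of 15 genes of monocytes and myeloid cells in general, 7 were tested, and Lyz2, the lysozyme gene, reached 10 in no library labelled oil (8.08, 5.79 and 5.57 against 14.1, 36.4 and 11.8). Among the other 6, Cx3cr1 (1.11) and Mpeg1 (1.16) were higher in this way, and the median was 0.69, or 0.81 without the library labelled tamoxifen 1. The 3 genes of this list with the highest means, Spi1 (PU.1), Fcgr3 and the chemokine receptor gene Ccr2, had log2 differences of 0.34, 0.67 and -0.98 and did not pass; leaving out that library, they were -0.034, 0.74 and 0.15. Of 13 other genes of complement, 5 were tested and 1, the properdin gene Cfp (1.26), was higher, with a median of 0.45, or 0.34 without the library labelled tamoxifen 1. C3ar1, which encodes the receptor for C3a, was at -0.52, or 0.15 without it. Of 7 genes around CSF1 signalling, 6 were tested. Csf1 itself reached 10 in no library labelled oil, at 7.19, 2.89 and 7.43 against 52.4, 11.1 and 17.3, and was highest in the library labelled tamoxifen 1. Of the other 5 genes 1 was higher, Csf2rb2 (1.02), which encodes a chain of the IL-3 receptor, and their median was 0.33, or 0.21 without the library labelled tamoxifen 1.

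Lists named for functions that macrophages share with other cells gave medians near that of all genes. For lysosome and phagosome genes the median was 0.028, or -0.022 without the library labelled tamoxifen 1, with 10 of 12 tested and 1, Cd63 (0.77), higher at an unadjusted p under 0.05. For the 17 genes of heme and iron handling, in which Hmox1 was not counted, all were tested, 0 passed this limit, and the median was 0.074, or -0.011 without that library. Tfrc, the transferrin receptor gene, was at -1.08, or -0.34 without it. Blvrb, which encodes a biliverdin reductase downstream of heme oxygenase, was at 0.14, or -0.19 without the library labelled tamoxifen 1, and Hmox2, the constitutive heme oxygenase, at 0.17, or 0.033. Of the 8 genes around VLA-4 and vascular adhesion, 4 were tested; Itga4 was at -0.46 and Itgb1 at -0.56, the latter lower at an unadjusted p of 0.0432 in limma. Without the library labelled tamoxifen 1, Itga4 was at 0.093 and Itgb1 at -0.34.

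Markers of other cell types were read beside these results. The neutrophil list, with 1 of its 9 genes tested, summed to 14.4 to 27 normalized counts under the oil label and 40.9 to 78.0 under the tamoxifen label, and Ly6g was at 0 reads in all 6 libraries. The other genes of this list below the limit for testing had 0 to 21 reads per library. For 6 of the 9 genes, Camp, Ngp, Ltf, Lcn2, S100a8 and S100a9, the groups did not overlap, with tamoxifen higher. This was seen in 7.86% of all genes tested, though none of the 6 was itself tested. Their highest value under the oil label was 4.82 normalized counts, so these orders rest on few reads. The highest means among them were those of S100a8, at 1.80, 0 and 1.86 normalized counts under the oil label against 12.8, 21.2 and 6.37, Ngp, a granule protein gene, at 0, 0 and 1.86 against 19.2, 17.2 and 3.64, and S100a9, at 2.69, 4.82 and 0 against 10.2, 11.1 and 7.28. Mmp8, the gene of this list that was tested, had a log2 difference of -1.47, or -0.30 without the library labelled tamoxifen 1. The B cell list, also with 1 of 7 genes tested, summed to 13.5 to 27.8 against 50.02 to 57.5; Ighm was higher (1.54, unadjusted p = 0.0485 in limma), while Ms4a1 was at 0. The plasma cell list, with 1 of 5 genes tested, summed to 1921 to 2178 against 2258 to 4000, nearly all of it Xbp1, whose log2 difference of 0.40 was 0.13 without the library labelled tamoxifen 1, and Mzb1 and Tnfrsf17 were at 0. The sums of these 3 lists did not overlap between the groups and were higher under the tamoxifen label, as was the sum of the macrophage genes, and their part in the result was not tested. The 5 NK cell genes were at 0, as were Cd3e and Cd8a of the T cell list, whose sum, mostly Lck, was 40.5 to 68.7 against 33.6 to 104. The dendritic cell list summed to 136 to 190 against 129 to 192, with Clec9a and Cd209a at 0.

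Endothelium and stroma, which are also known to express Vcam1, were read from lists of their own. Of the endothelial list, Cdh5, Emcn, Tek and Tie1 had 0 to 2 reads per library. Kdr was at 8.08, 4.82 and 5.57 normalized counts under the oil label and 0, 5.05 and 5.46 under the tamoxifen label. Esam was at 55.7, 17.4 and 23.2 against 32.0, 14.1 and 31.8. The list summed to 3171 to 3405 normalized counts under the oil label and 3070 to 7677 under the tamoxifen label, mostly through Egfl7, Plvap and Eng. The 7677 was the library labelled tamoxifen 1, against 3070 and 3089 in the other two, and the list's median log2 difference of 0.28 was -0.19 without it. Pdgfrb and Lum of the stromal list were at 0, and its sum of 1441 to 2282 against 415 to 1507, with the 415 in the library labelled tamoxifen 1, came mostly from Dcn. The erythroid list summed to 51117 to 71271 against 56312 to 88914, with a median log2 difference of 0.29, and the megakaryocyte and platelet list to 1021 to 1126 against 936 to 1348, with Itga2b higher (1.19, unadjusted p = 0.0391 in limma; 0.86 without the library labelled tamoxifen 1). Whether the 10 macrophage genes were read from carried-over macrophages or from the sorted leukemia cells was not tested.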

How the data were processed

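Per the study's methods and the submitters' processing notes, the authors aligned the reads to mm10 with STAR and normalized them with DESeq2; versions, annotation and strand setting are not given in the sources used here, and libraries were made with a kit for tagmentation of DNA, per the labels. The deposited values are a signal that the authors scaled, namely counts of reads over the size factor of each library. All values were whole multiples of the worth of 1 read (tolerance 0.01 reads), which recovered whole reads. Of 55450 rows, 1832 had no gene name (0.0400% to 0.0614% of the reads) and were left out. Groups and replicate numbers came from the labels. The 3 libraries of a group are described as biological replicates.

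limma (version 3.58.1, R 4.3.3; lmFit, eBayes with trend) was run on log2(value + 1) for 12298 genes that reached 10 in 3 or more libraries, two-sided, with Benjamini-Hochberg adjustment and a threshold of 0.05. This scale understates changes of low genes. edgeR (version 4.0.16) and DESeq2 (version 1.42.0) were run on recovered reads as alternatives. Of the tested genes, 98.8% had a GC value. Coordinates, exon lengths and GC content are those of GENCODE vM21 (GRCm38), matched by symbol. Shares have exact Clopper-Pearson 95% intervals and reads exact Poisson ones. Same-numbered libraries of the 2 groups did not deviate together (correlations -0.024, 0.061 and -0.15), so no block was used.

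The members and the lists were chosen with earlier results of these data known. Named were the 10 genes, Kit, up to 4 genes per list with the highest mean and up to 3 with the smallest p, and the 10 genes most like C1q; other genes were named after their values were seen. Usp18 was read first as the targeted gene. The results of 2 listed marker genes are not reported here.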

Additional observations from a re-analysis of the deposited data

How the results depend on the processing

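Over 16 alternative settings, the 9 tested macrophage genes gave 143 log2 differences, all above 0, and 142 of them stayed on the same side of the adjusted p threshold; the exception was Hmox1 in DESeq2 on recovered reads. The other 8 genes had no adjusted p under 0.05 in any setting, the lowest being 0.245 for Vcam1 without the library labelled tamoxifen 1. DESeq2 called 71 genes in all and 1 macrophage gene, and the GC correction called 2 genes and 0 macrophage genes. With 1 library left out in turn, the count of all genes called ran from 0 to 41, the latter without the library labelled tamoxifen 1, macrophage genes called stayed at 0, macrophage genes with groups that did not overlap ran from 5 to 8, and their median log2 difference from 0.94 to 1.46. The other settings (pseudocounts of 0.5 and 5, no filter on low values, 1 CPM in 3 libraries, which kept 8 of the 9 genes, TMM scaling, edgeR and the GC correction) gave medians of 1.01 to 1.22. With the replicate number as a block, 0 genes were called and the median stayed at 1.19, or 1.14 with the GC correction; the pairing has no basis in the labels beyond the number.

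The 10 genes had 29 to 506 reads each over all 6 libraries, and Adgre1, with 29, allowed no test under the limit on low values.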
